A study of Mus musculus with 64 samples.

Results

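This account follows 9 genes of the transforming growth factor beta (TGF-beta) pathway in mouse liver: the ligand gene Tgfb1, the latency and activation genes Ltbp4 and Thbs1, the receptor genes Tgfbr1 and Tgfbr2, the SMAD corepressor gene Skil, and the response genes Pmepa1, Adamtsl2 and Tgfbi. They were taken by gene symbol from a table of 55487 genes, of which 23436 had at least 1 UMI (unique molecular identifier, a tag that marks 1 captured transcript), and all 9 symbols were found. A filter on low counts left 10097 genes for testing, among them 8 of the 9, with Thbs1 outside. The tested livers carried a hairpin against Acsf3, the gene of a mitochondrial acyl-CoA synthetase (sh-Acsf3), and the comparison livers a control hairpin (sh-Ctl). Both groups were male C57BL/6J mice eating freely, both had received their hairpin in an AAV8 vector, and livers were taken 4 weeks later, at 8 times of day 3 h apart, given in zeitgeber time (ZT, counted in hours from lights on), with 4 libraries per treatment and time. That gave 64 bulk 3′ end libraries in 16 groups. The promoter that drives the hairpin is not given in the sources used here, and the labels do not say that the 4 libraries of a group came from separate animals, so p-values describe the spread between these libraries.

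TGF-beta is secreted in a latent complex, bound to latent TGF-beta binding proteins in the extracellular matrix, and acts once it is released. The type II receptor (Tgfbr2) binds the freed ligand and switches on the type I receptor (Tgfbr1), which phosphorylates SMAD proteins that enter the nucleus and change transcription. In liver the pathway is best known for driving hepatic stellate cells to make collagen, and for restraining hepatocyte division.

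The depth was 839265 to 9350652 UMIs per sh-Acsf3 library and 1484486 to 6063636 UMIs per sh-Ctl library. Acsf3 itself averaged 2.56 ± 1.72 CPM (the usual depth-scaled count unit, here after TMM scaling between libraries) in sh-Acsf3 and 11.3 ± 2.61 CPM in sh-Ctl (SD, n = 32 each), so the targeted transcript stood at 22.7% of the control level. Summed hepatocyte markers ran from 107100 to 150000 CPM in sh-Acsf3 and from 74270 to 142800 CPM in sh-Ctl, so the markers of the labelled tissue were abundant in every library. A group of 4 libraries, all sh-Ctl, held more than 1000 CPM of the acute-phase gene Saa1. A further 8 libraries, 6 of sh-Acsf3 and 2 of sh-Ctl, held more than 100 CPM of summed pancreatic enzyme transcripts. The averaged count of called genes among the 9 was the same without either set of libraries.

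The promoters of the ligand gene and of both response genes that RefSeq matched are shown because they belong to called genes. They run from 250 bases before to 50 bases after the RefSeq start (GRCm38.p6), on the plus strand, 5′ to 3′. Capitals mark the short SMAD motif CAGAC or its reverse complement GTCTG. The first lies at chr7:25686752-25687051, the second at chr2:27079129-27079428 and the third at chr13:56609336-56609635.
Tgfb1: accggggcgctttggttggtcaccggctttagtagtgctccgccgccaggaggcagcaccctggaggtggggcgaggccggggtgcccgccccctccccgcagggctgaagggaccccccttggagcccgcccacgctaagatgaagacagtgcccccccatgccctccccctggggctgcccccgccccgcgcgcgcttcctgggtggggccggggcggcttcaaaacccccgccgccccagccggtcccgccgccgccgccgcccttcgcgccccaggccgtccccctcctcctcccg
Adamtsl2: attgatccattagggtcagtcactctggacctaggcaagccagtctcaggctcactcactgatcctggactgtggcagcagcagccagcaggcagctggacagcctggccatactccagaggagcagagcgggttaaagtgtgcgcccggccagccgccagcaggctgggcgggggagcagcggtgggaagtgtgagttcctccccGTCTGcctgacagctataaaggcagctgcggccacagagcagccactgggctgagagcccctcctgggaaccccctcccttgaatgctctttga
Tgfbi: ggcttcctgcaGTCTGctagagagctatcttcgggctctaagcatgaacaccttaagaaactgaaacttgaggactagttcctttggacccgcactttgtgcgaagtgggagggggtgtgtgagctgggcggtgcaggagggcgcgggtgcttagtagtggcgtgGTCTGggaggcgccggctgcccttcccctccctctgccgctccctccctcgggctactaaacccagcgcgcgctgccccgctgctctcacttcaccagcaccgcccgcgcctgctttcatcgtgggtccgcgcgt
The Adamtsl2 window held 1 such motif, starting at -44 from the start, and the Tgfbi window held 2, starting at -239 and -85. The Tgfb1 window, with 77.0% G and C, held none. Of all 32851 mouse promoter windows of this length, 49.6% held at least 1 of them on either strand, so a match is common. Neither the SMAD palindrome GTCTAGAC, present in 0.213% of windows, nor the AP-1 site TGANTCA, present in 7.81%, occurred in these 3 windows. No match overlapped another. RefSeq promoters were matched for 6 of the 9 genes; Pmepa1, Thbs1 and Skil are named only, and the 3 RefSeq windows of Ltbp4, also a called gene, held none of the motifs. The short SMAD motif also occurred in windows of genes that were not called, at -203 in 1 of 2 windows of Tgfbr1 and at -160 in that of Tgfbr2.

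Over the whole day, 5 of the 8 tested genes were higher in sh-Acsf3 and 0 were lower: the response genes Adamtsl2, Pmepa1 and Tgfbi, the ligand gene Tgfb1 and the latency gene Ltbp4. Both receptor genes and Skil, which is also a TGF-beta response gene, did not pass. The test was of the mean over the 8 times of the difference between sh-Acsf3 and sh-Ctl (positive where sh-Acsf3 is higher), by edgeR's quasi-likelihood test adjusted over all 10097 genes, with a threshold of 0.05. By the same test 8.26% of all genes were called higher and 6.21% lower. The median difference over all tested genes was -0.0085 (log2). The filter asked for 3.58 CPM in at least 4 libraries. Adamtsl2 and Tgfb1 met it only through sh-Acsf3 (23 and 15 libraries, against 0 and 2 of sh-Ctl), so they could be tested because they were high there, and 5 of 8 is no measure of all 9 genes. Of the 6 genes that also met it within sh-Ctl, 3 were called higher (Pmepa1, Tgfbi and Ltbp4). In whole liver, more cells of a type and more RNA per cell cannot be told apart, here and in all that follows.

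**Figure D1:**
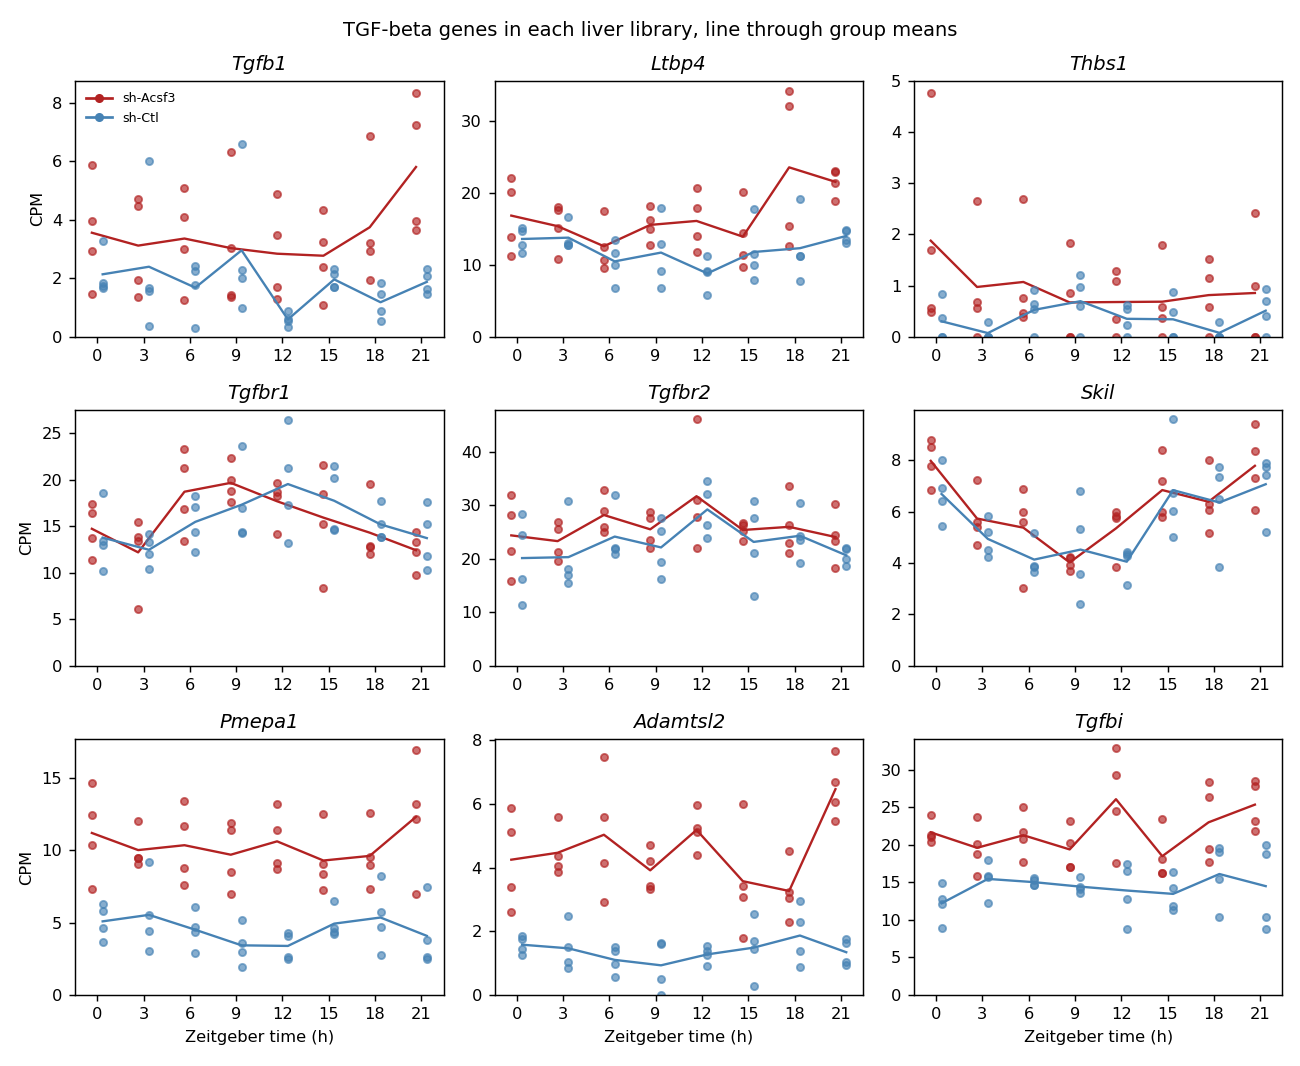
CPM of the 9 genes (y axis, linear, from 0) against zeitgeber time in hours (x axis); each point is 1 library, sh-Acsf3 in red and sh-Ctl in blue, and lines join the means of 4. The points of Pmepa1, Adamtsl2 and Tgfbi separate by treatment through most of the day, while those of Tgfbr1, Tgfbr2 and Skil overlap at every time.

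Adamtsl2 (ENSMUSG00000036040, chromosome 2, 27079379 to 27108981, plus strand, GRCm38) encodes a secreted glycoprotein that binds latent TGF-beta binding protein 1. Its lowest, median and highest library held 1.80, 4.38 and 7.65 CPM in sh-Acsf3, against 0, 1.40 and 2.95 CPM in sh-Ctl. In 30 of 32 sh-Acsf3 libraries it was above every sh-Ctl library of the same time, and the groups separated completely at 6 of 8 times. The averaged difference was 1.63 ± 0.14 (log2, SE), a 3.10-fold rise, with an edgeR adjusted p of 3.12e-14 (higher at 8 of 8 times). It was the largest difference of the 8 tested genes, on thin counts: 409 UMIs in all sh-Acsf3 libraries and 136 in all sh-Ctl libraries. The widest gap was at ZT21, where the 4 sh-Acsf3 libraries held 5.46, 6.05, 6.70 and 7.65 CPM and the 4 sh-Ctl libraries 0.930, 1.04, 1.63 and 1.76 CPM. The narrowest was at ZT18, with 2.29, 3.03, 3.22 and 4.51 CPM in sh-Acsf3 and 0.867, 1.36, 2.28 and 2.95 CPM in sh-Ctl, where the groups overlapped.

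Pmepa1 (ENSMUSG00000038400, chromosome 2, 173224458 to 173276533, minus strand) encodes a membrane protein that TGF-beta induces and that holds back SMAD signalling. The lowest, median and highest library held 6.95, 9.51 and 16.95 CPM in sh-Acsf3, against 1.94, 4.36 and 9.19 CPM in sh-Ctl. A total of 29 of 32 sh-Acsf3 libraries lay above every sh-Ctl library of their time, and no sh-Ctl library lay above all sh-Acsf3 libraries. The averaged difference was 1.17 ± 0.105 (log2, SE), a 2.25-fold rise, with an edgeR adjusted p of 8.04e-14 (higher at 8 of 8 times). The 8 group means stayed between 9.30 CPM at ZT15 and 12.3 CPM at ZT21 in sh-Acsf3, and between 3.38 CPM at ZT12 and 5.54 CPM at ZT3 in sh-Ctl. At ZT12, where the gap was widest, the libraries held 8.74, 9.13, 11.4 and 13.2 CPM in sh-Acsf3 and 2.51, 2.65, 4.09 and 4.29 CPM in sh-Ctl.

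Tgfbi (ENSMUSG00000035493, chromosome 13, 56609523 to 56639562, plus strand) encodes a matrix protein named for its induction by TGF-beta. Across the day the lowest, median and highest library held 15.8, 21.1 and 32.9 CPM in sh-Acsf3, against 8.77, 14.6 and 20.0 CPM in sh-Ctl. The ranges over the day overlapped, but within their times 27 of 32 sh-Acsf3 libraries exceeded all sh-Ctl libraries. Averaged over the day, the difference was 0.58 ± 0.07 (log2, SE), a 1.49-fold rise, with an edgeR adjusted p of 8.72e-09 (higher at 8 of 8 times). At ZT0 the libraries held 20.4, 21.0, 21.3 and 24.0 CPM in sh-Acsf3 and 8.92, 12.1, 12.8 and 14.9 CPM in sh-Ctl. At ZT3 they came closest, with 15.8, 18.8, 20.1 and 23.6 CPM in sh-Acsf3 and 12.2, 15.8, 15.8 and 18.0 CPM in sh-Ctl.

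Tgfb1 (ENSMUSG00000002603, chromosome 7, 25687002 to 25705077, plus strand) encodes the ligand TGF-beta 1. Its lowest, median and highest library held 1.09, 3.23 and 8.35 CPM in sh-Acsf3, against 0.278, 1.68 and 6.59 CPM in sh-Ctl. Libraries of both treatments reached above 6 CPM, and 20 of 32 sh-Acsf3 libraries exceeded every sh-Ctl library of their time. The averaged difference was 0.89 ± 0.205 (log2, SE), a 1.85-fold rise, with an edgeR adjusted p of 0.00113 (higher at 7 of 8 times). At ZT12 the libraries held 1.28, 1.69, 3.50 and 4.89 CPM in sh-Acsf3 and 0.314, 0.545, 0.613 and 0.883 CPM in sh-Ctl. At ZT9, the 1 time with a negative difference (-0.17 ± 0.55, log2, SE), they held 1.37, 1.42, 3.02 and 6.32 CPM in sh-Acsf3 and 0.968, 2.00, 2.27 and 6.59 CPM in sh-Ctl. The groups were fully apart at ZT12, ZT18 and ZT21 and overlapped at the other times. A median of 8 UMIs per sh-Acsf3 library and 5 per sh-Ctl library stands behind these levels.

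Ltbp4 (ENSMUSG00000040488, chromosome 7, 27305136 to 27337692, minus strand) encodes a latent TGF-beta binding protein of elastic fibres. The lowest, median and highest library held 9.57, 15.8 and 34.2 CPM in sh-Acsf3, against 5.82, 12.2 and 19.1 CPM in sh-Ctl. In 17 of 32 sh-Acsf3 libraries it exceeded all sh-Ctl libraries of the time. Its averaged difference was 0.44 ± 0.10 (log2, SE), a 1.36-fold rise, with an edgeR adjusted p of 0.000943 (higher at 8 of 8 times). Leaving out replicate 4 of every group gave 0.35 with an edgeR adjusted p of 0.0577, the 1 setting that ended the call. At ZT18 the sh-Acsf3 libraries were split, at 12.6, 15.4, 32.1 and 34.2 CPM, against 7.67, 11.2, 11.3 and 19.1 CPM in sh-Ctl.

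Thbs1 (ENSMUSG00000040152, chromosome 2, 118111876 to 118127133, plus strand) encodes thrombospondin 1, a matrix protein that can release TGF-beta from its latent complex. It fell below the count filter, with 104 UMIs over 32 sh-Acsf3 libraries and 36 over 32 sh-Ctl libraries. Its lowest, median and highest library held 0, 0.579 and 4.76 CPM in sh-Acsf3, against 0, 0.286 and 1.20 CPM in sh-Ctl, and it was at 0 in 8 sh-Acsf3 and 14 sh-Ctl libraries. Without a filter, over 23436 genes, its averaged difference was 1.48 ± 0.33 (log2, SE, edgeR adjusted p = 0.000278). The fitted difference was above 0 at 8 of 8 times and past the threshold at 0 of them. The ZT9 group means were nevertheless 0.669 ± 0.868 CPM in sh-Acsf3 and 0.693 ± 0.525 CPM in sh-Ctl (SD, n = 4 each). Counts were uneven: sh-Acsf3 ZT0 replicates 3 and 2 held 15 and 13 UMIs, ZT9 replicate 3 held 12 and ZT3 replicate 2 held 11. The median sh-Acsf3 library held 2. The long noncoding gene Gm29233 overlaps Thbs1 on the opposite strand, and the strand setting of the counting is not given in the sources used here, so reads of these genes may not be separated. None of the other 8 genes has an overlapping gene in the GENCODE annotation used.

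Tgfbr1 (ENSMUSG00000007613, chromosome 4, 47353222 to 47414931, plus strand), the type I receptor, had a lowest, median and highest library of 6.08, 15.3 and 23.3 CPM in sh-Acsf3, against 10.1, 14.5 and 26.4 CPM in sh-Ctl. The averaged difference was 0.0080 ± 0.079 (log2, SE; edgeR adjusted p = 0.978), above 0 at 4 times and below 0 at 4, and its sign changed under other settings. Tgfbr2 (ENSMUSG00000032440, chromosome 9, 116084293 to 116175360, minus strand), the type II receptor, had a lowest, median and highest library of 15.9, 25.7 and 46.0 CPM in sh-Acsf3, against 11.3, 22.0 and 34.5 CPM in sh-Ctl. Its difference of 0.18 ± 0.08 (log2, SE) was above 0 at 8 of 8 times without passing the test (edgeR adjusted p = 0.118). With library size as the only scaling it passed, at 0.23 (edgeR adjusted p = 0.0439). For both receptors the treatments overlapped at all 8 times. A p above the threshold does not show equal levels.

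Skil (ENSMUSG00000027660, chromosome 3, 31095058 to 31122577, plus strand) encodes SnoN, a corepressor of SMAD proteins that is itself a rapid TGF-beta response gene. Its lowest, median and highest library held 3.03, 5.99 and 9.43 CPM in sh-Acsf3, against 2.40, 5.26 and 9.59 CPM in sh-Ctl. The groups overlapped at all 8 times. The averaged difference was 0.13 ± 0.09 (log2, SE; edgeR adjusted p = 0.433), above 0 at 6 of 8 times.

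**Figure D2:**
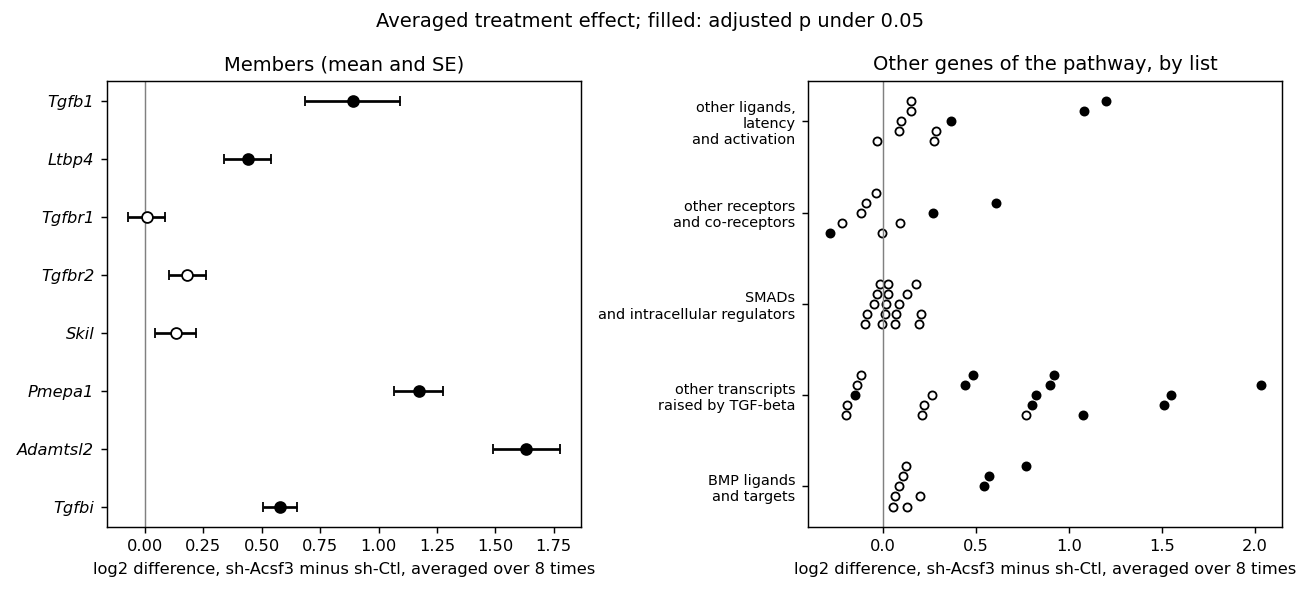
Averaged log2 difference, sh-Acsf3 minus sh-Ctl (x axis), for the 8 tested genes with SE bars (left) and, as single points, for 65 other tested genes of the pathway in 5 lists (right); filled points passed an adjusted p of 0.05. Adamtsl2 (1.63) and Pmepa1 (1.17) stand farthest to the right among the 8, Tgfbr1 (0.0080) lies on 0, and no gene of the SMAD list is filled.

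Several of these genes are made by non-parenchymal cells, and markers of some, but not all, of those cell types were higher in sh-Acsf3 as well. Of 13 tested stellate cell and fibroblast markers 11 were higher and 0 lower; of the 11 that met the filter within sh-Ctl, 10 were higher. Their summed level was 434 to 745 CPM in sh-Acsf3 and 208 to 423 CPM in sh-Ctl, and 32 of 32 sh-Acsf3 libraries were above the highest sh-Ctl library taken at the same ZT. Of 9 listed T and NK cell markers 3 fell below the count filter and 5 met it only through sh-Acsf3. Those 5 could be tested because they were high there, so 6 higher of 6 tested is no measure of the list. The 1 marker that met the filter within sh-Ctl, Ccl5, was higher. The whole list gave sums of 15.6 to 75.0 CPM in sh-Acsf3 and 3.89 to 21.2 CPM in sh-Ctl. In 32 of 32 sh-Acsf3 libraries this sum was above the highest sh-Ctl library of the same ZT. Of macrophage markers 6 of 10 were higher, and 5 of the 9 that met the filter within sh-Ctl (sums 148 to 477 CPM in sh-Acsf3, 118 to 463 CPM in sh-Ctl). Among monocyte and neutrophil markers 4 of 6 were higher, and 3 of the 4 that met it within sh-Ctl (94.6 to 281 CPM in sh-Acsf3, 69.2 to 236 CPM in sh-Ctl). Of B and plasma cell markers 3 of 3 were higher, 2 of them tested only through sh-Acsf3 (12.6 to 155 CPM in sh-Acsf3, 4.10 to 42.4 CPM in sh-Ctl), and of cholangiocyte markers 2 of 3, 1 of them tested only through sh-Acsf3 (58.6 to 139 CPM in sh-Acsf3, 29.5 to 122 CPM in sh-Ctl). Of 10 sinusoidal endothelial markers 1 was higher (167 to 280 CPM in sh-Acsf3, 131 to 286 CPM in sh-Ctl). Of 7 hepatocyte markers 1 was higher and 2 lower. Platelets store Tgfb1 product and thrombospondin; none of their 7 markers passed the count filter, and they summed to 1.17 to 8.97 CPM in sh-Acsf3 and 0.877 to 7.19 CPM in sh-Ctl. Mesothelial markers summed to 0.583 to 19.4 CPM in sh-Acsf3 and 0 to 5.72 CPM in sh-Ctl, and smooth muscle markers to 0 to 13.3 CPM in sh-Acsf3 and 0 to 11.4 CPM in sh-Ctl. Of 8 tested exocrine pancreas markers 0 passed, with sums of 1.39 to 6551 CPM in sh-Acsf3 and 0.815 to 585 CPM in sh-Ctl; 1 listed marker, Amy2a2, was at 0 in every library, and no marker of another list was. The part of any of these cells in the differences of the 9 genes was not tested.

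At single times, 11 of 64 gene and time pairs passed edgeR's test (adjusted over all genes within each time), all higher in sh-Acsf3. Pmepa1 accounted for 5 of them (ZT0, ZT6, ZT9, ZT12 and ZT21), Adamtsl2 for 4 (ZT6, ZT9, ZT12 and ZT21) and Tgfbi for 2 (ZT0 and ZT12). The share of all genes called higher was 0.465% at ZT0, 0.0594% at ZT3, 0.188% at ZT6, 0.307% at ZT9, 1.16% at ZT12, 0.0198% at ZT15, 0.139% at ZT18 and 0.277% at ZT21. None of the 8 genes was called at ZT3, ZT15 or ZT18, the times with the fewest calls overall. The Adamtsl2 difference was 2.05 ± 0.37 at ZT6, 1.96 ± 0.39 at ZT12 and 2.20 ± 0.42 at ZT21, and that of Pmepa1 was 1.65 ± 0.30 at ZT12 (log2, SE, n = 4 per group). These 4 calls held whichever single library was left out, but 3 of them ended when a replicate number was left out of every group. Adamtsl2 at ZT21 then had an edgeR adjusted p of 0.0553 without replicate 1 and 0.06 without replicate 4, Adamtsl2 at ZT6 had 0.0603 without replicate 3, and Pmepa1 at ZT12 had 0.0672 without replicate 1. Without the libraries with pancreas transcripts 6 of the 64 pairs were called, and without those high in Saa1 10. In 21 of the 64 pairs all 4 sh-Acsf3 libraries lay above all 4 sh-Ctl libraries, and in 0 pairs all lay below. Over all genes and times 2.8% of pairs had the sh-Acsf3 libraries on top in this way. Such full separation occurred at 6 times for Adamtsl2, 5 for Pmepa1, 5 for Tgfbi, 3 for Tgfb1, 2 for Ltbp4 and 0 for the other 3 genes. Adamtsl2 and Tgfb1 met the count filter only through sh-Acsf3. Their 6 and 3 separated pairs, and the 4 Adamtsl2 calls, could therefore enter because these genes were high there.

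The remaining 7 single-time calls were each lost in some of the fits that left out a single library, for some calls with most libraries of that time. Pmepa1 at ZT0 (1.16 ± 0.29, log2, SE) lost its call without any 1 of the 4 sh-Ctl libraries or without sh-Acsf3 replicate 2, 3 or 4 (edgeR adjusted p 0.0566 to 0.231). Pmepa1 at ZT6 (1.16 ± 0.27) lost it without sh-Acsf3 replicate 1 or 3 or sh-Ctl replicate 1, 2 or 3 (0.0833 to 0.233, edgeR). Pmepa1 at ZT9 (1.44 ± 0.32) lost it without sh-Acsf3 replicate 3 or sh-Ctl replicate 1, 2 or 4 (0.0515 to 0.108, edgeR), and at ZT21 (1.57 ± 0.33) without sh-Acsf3 replicate 2 or 3 or sh-Ctl replicate 1 or 3 (0.052 to 0.0769, edgeR). Adamtsl2 at ZT9 (1.87 ± 0.44) lost it without sh-Acsf3 replicate 3 or sh-Ctl replicate 1, 2 or 4 (0.0522 to 0.159, edgeR). Tgfbi at ZT0 (0.83 ± 0.21) lost it without any 1 of the 4 sh-Acsf3 libraries or sh-Ctl replicate 1, 2 or 3 of that time (0.0541 to 0.288, edgeR). It also lost it, at 0.0518 and 0.0517, without sh-Acsf3 ZT6 replicate 2 or ZT15 replicate 4. Tgfbi at ZT12 (0.89 ± 0.20) lost it without sh-Acsf3 replicate 1 or sh-Ctl replicate 3 (0.131 and 0.0664, edgeR). In limma-voom the calls of Adamtsl2 at ZT9, Pmepa1 at ZT0 and Tgfbi at ZT0 were lost (limma-voom adjusted p of 0.0829, 0.0637 and 0.0685). In DESeq2 that of Adamtsl2 at ZT9 was lost (DESeq2 adjusted p = 0.0854). With library size as the only scaling, those of Pmepa1 at ZT0 and ZT6 were lost (edgeR adjusted p of 0.0573 and 0.087).

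**Figure D3:**
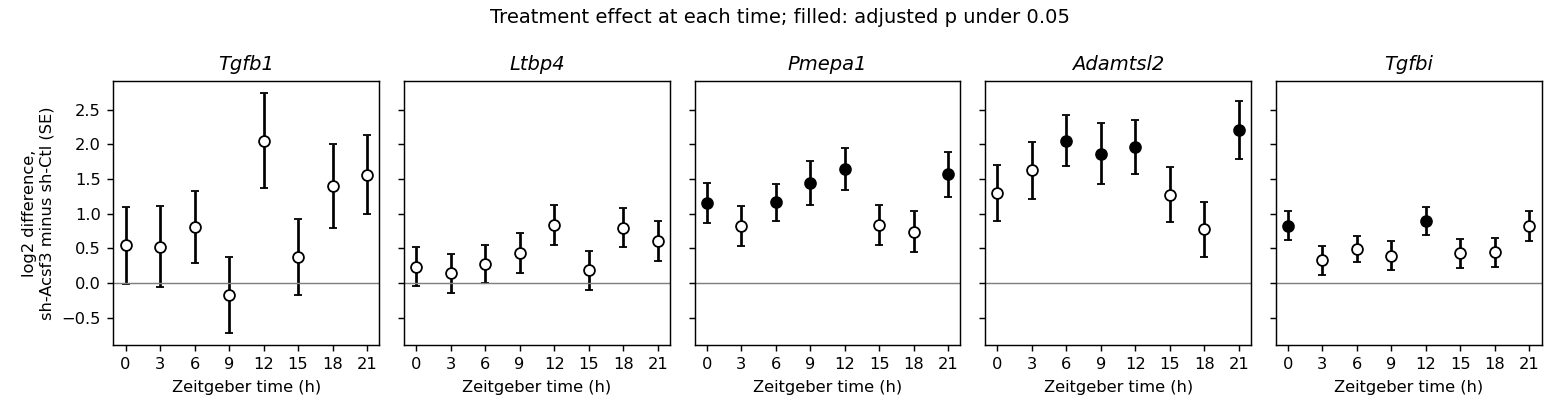
Log2 difference, sh-Acsf3 minus sh-Ctl, at each zeitgeber time (x axis, hours) for the 5 genes called over the day; points are estimates from 4 libraries per treatment, bars are SE, and filled points passed an adjusted p of 0.05. Only 1 of these 40 differences, Tgfb1 at ZT9 (-0.17), lies below 0.

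Whether the size of the difference itself changed with the time of day was tested with 7 degrees of freedom. None of the 8 genes passed, and the share of all genes called was 0% in edgeR, with 306 of 10097 genes at an unadjusted p under 0.05. Among the 8, the lowest unadjusted p was 0.203, for Tgfb1. limma-voom called 0 of all genes with 392 at an unadjusted p under 0.05, and DESeq2 called 0 with 229. The dip of Adamtsl2 to 0.78 ± 0.39 at ZT18 and the peak of 2.20 ± 0.42 at ZT21 (log2, SE) are therefore not shown to differ.

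A daily rhythm, tested as a 24 h cosine within each treatment, was called for Tgfbr1 and Skil in both treatments and for no other of the 8 genes. In sh-Acsf3 19.6% of all genes were called rhythmic, and in sh-Ctl 19.4%, so 2 of 8 is near the share of all genes. Skil had an amplitude (mean to peak, log2) of 0.35 ± 0.07 with a peak at ZT20.9 ± 0.728 h in sh-Acsf3 (edgeR adjusted p = 0.0019), and of 0.37 ± 0.08 with a peak at ZT20.2 ± 0.812 h in sh-Ctl (edgeR adjusted p = 0.00186). Its group means were lowest at ZT9 in sh-Acsf3, at 4.02 ± 0.259 CPM, and at ZT12 in sh-Ctl, at 4.05 ± 0.611 CPM (SD, n = 4 each). They were highest at ZT0 in sh-Acsf3, at 7.98 ± 0.868 CPM, and at ZT21 in sh-Ctl, at 7.07 ± 1.26 CPM.

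Tgfbr1 was highest near the time of day at which Skil was lowest. Its amplitude was 0.28 ± 0.09 with a peak at ZT10.0 ± 1.22 h in sh-Acsf3 (edgeR adjusted p = 0.0104), and 0.26 ± 0.07 with a peak at ZT12.3 ± 1.02 h in sh-Ctl (edgeR adjusted p = 0.0155). Its highest group mean was 19.7 ± 2.03 CPM at ZT9 in sh-Acsf3 and 19.5 ± 5.66 CPM at ZT12 in sh-Ctl (SD, n = 4 each). The lowest was at ZT3 in both treatments, at 12.2 ± 4.16 CPM in sh-Acsf3 and 12.5 ± 1.63 CPM in sh-Ctl. The Tgfbr1 call in sh-Acsf3 ended without the libraries with pancreas transcripts (edgeR adjusted p = 0.0631) and without replicate 1 or 2 (0.104 and 0.0913), and that in sh-Ctl without replicate 1 or 4 (0.095 and 0.0756). Rhythms of the other 6 genes did not pass in either treatment; for Ltbp4 the edgeR adjusted p was 0.105 in sh-Acsf3 and 0.123 in sh-Ctl, and for Tgfbr2 it was 0.514 in sh-Acsf3 and 0.0969 in sh-Ctl. A difference in rhythm between treatments was called for none of the 8 genes and for 0% of all genes in edgeR, with 431 genes at an unadjusted p under 0.05. The lowest unadjusted p of the 8 was 0.194, for Tgfbr1, and limma-voom called 0 of all genes with 491 at an unadjusted p under 0.05.

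**Figure D4:**
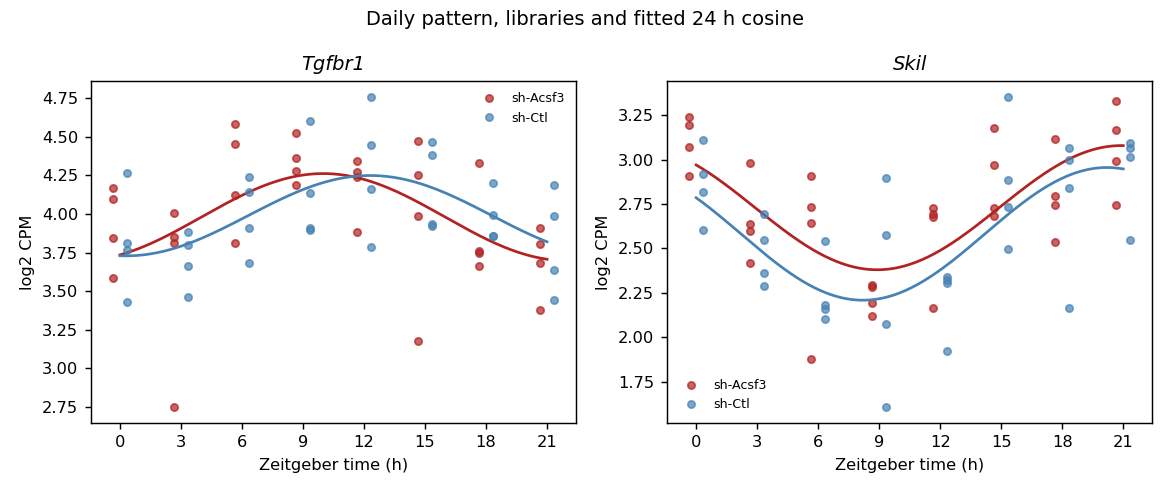
Log2 CPM of Tgfbr1 and Skil in each library (points) against zeitgeber time in hours, with the fitted 24 h cosine per treatment (lines); sh-Acsf3 in red, sh-Ctl in blue. Skil peaks near ZT20.9 in sh-Acsf3 and ZT20.2 in sh-Ctl, and Tgfbr1 near ZT10.0 in sh-Acsf3 and ZT12.3 in sh-Ctl.

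The rest of the pathway was described with 5 lists holding 86 other genes, of which 65 passed the count filter. Of these, 18 were called higher and 2 lower, beside 8.26% called higher and 6.21% lower of all tested genes. Among the 18, Fbn1, Thbs2, Ccn2 and Loxl1 met the filter only through sh-Acsf3. Without a filter 28 of the listed genes were called higher and 2 lower, and the share of all genes in that setting is not given here. Of 18 ligand, latency and activation genes 8 fell below the filter, and 3 of the 10 tested were higher and 0 lower: Fbn1, which encodes the microfibril protein fibrillin 1 that anchors latent complexes, at 1.08 ± 0.195, Thbs2, which encodes thrombospondin 2, at 1.20 ± 0.22, and Lrrc32, which encodes a surface tether of latent TGF-beta, at 0.37 ± 0.13 (log2, SE). Fbn1 averaged 2.79 ± 1.42 CPM in sh-Acsf3 and 1.23 ± 0.786 CPM in sh-Ctl (SD, n = 32 each; edgeR adjusted p = 2.8e-05). Fbn1 and Thbs2 met the filter only through sh-Acsf3; of the 8 genes that met it within sh-Ctl, 1 was higher. The Lrrc32 call (edgeR adjusted p = 0.0476) held in 29 of 64 fits that each left out a library. Without replicate 1 the Lrrc32 difference was 0.17 (edgeR adjusted p = 0.559), and without the libraries high in Saa1 it was 0.27 (edgeR adjusted p = 0.172).

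Among 9 other receptors and co-receptors 2 were higher and 1 lower (median -0.036). Bambi, a pseudoreceptor that dampens the signal, differed by 0.61 ± 0.13 (log2, SE; edgeR adjusted p = 0.000504), with 5.38 ± 2.02 CPM in sh-Acsf3 and 3.45 ± 1.22 CPM in sh-Ctl (SD, n = 32 each). Eng, an endothelial co-receptor, differed by 0.27 ± 0.06 (edgeR adjusted p = 0.00107), and Acvr1b, an activin type I receptor, by -0.28 ± 0.101 (edgeR adjusted p = 0.0473). The Acvr1b call held in 27 of 64 fits that each left out a library and in 4 of 14 other settings; it was lost with RLE scaling (0.0524), with library size only (0.168), without a filter (0.0892) and in DESeq2 (0.0714), all adjusted p-values. Of 17 SMADs and intracellular regulators 0 passed in either direction (median 0.029). The 3 with the smallest p were Ppm1a, a phosphatase of SMAD2 and SMAD3, at -0.096 ± 0.042, and the inhibitory Smad7 and Smad6 at 0.20 ± 0.09 and 0.20 ± 0.10 (log2, SE). Their edgeR adjusted p-values were 0.116, 0.127 and 0.163. Without the libraries with pancreas transcripts Smad7 passed, at 0.27 (edgeR adjusted p = 0.0251).

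Of 19 other tested transcripts that TGF-beta is known to raise, 10 were higher, 1 was lower and 8 were not called. Among the 17 that met the filter within sh-Ctl, 8 were higher and 1 lower. The matrix genes Sparc, Col1a2 and Col3a1 differed by 0.81 ± 0.07, 1.51 ± 0.115 and 1.55 ± 0.12 (log2, SE). Col3a1 averaged 59.9 ± 21.6 CPM in sh-Acsf3 and 20.4 ± 5.99 CPM in sh-Ctl (SD, n = 32 each). The 1 gene of the list that was lower, named after its value was seen, was Fn1, which encodes fibronectin and is made in bulk by hepatocytes, at -0.15 ± 0.05 (log2, SE; edgeR adjusted p = 0.0241). Of 10 BMP (bone morphogenetic protein, a related branch) ligands and targets 3 were higher and 0 lower (median 0.13). They were Hamp, the gene of the iron hormone hepcidin, at 0.57 ± 0.10, Id1, a SMAD target, at 0.77 ± 0.14, and Gdf2, the gene of BMP9, at 0.54 ± 0.103 (log2, SE).

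For each of the 6 genes that averaged 5 CPM or more, the 2 genes whose 16 group means of log2 CPM correlated best with its own were taken from 7769 candidates at that level. Pmepa1 was most like Col3a1 and Col1a2 (Pearson r = 0.976 for both over 16 means). Tgfbi was like the MHC class II gene H2-Aa (0.943). Ltbp4 was most like Il17rc (0.897) and Timp2 (0.892), Tgfbr2 like Sptssa (0.903) and Ldb1 (0.852), Tgfbr1 like Dennd5b (0.887) and Tfdp2 (0.878), and Skil like Desi2 (0.899) and Nat8f5 (0.885). The means of a pair come from the same libraries and include the step between treatments, so these values are descriptions without a test. For Pmepa1 and for Tgfbi the 8 sh-Acsf3 means all lay above the 8 sh-Ctl means; for Skil both treatments were mixed along the time of day.

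**Figure D5:**
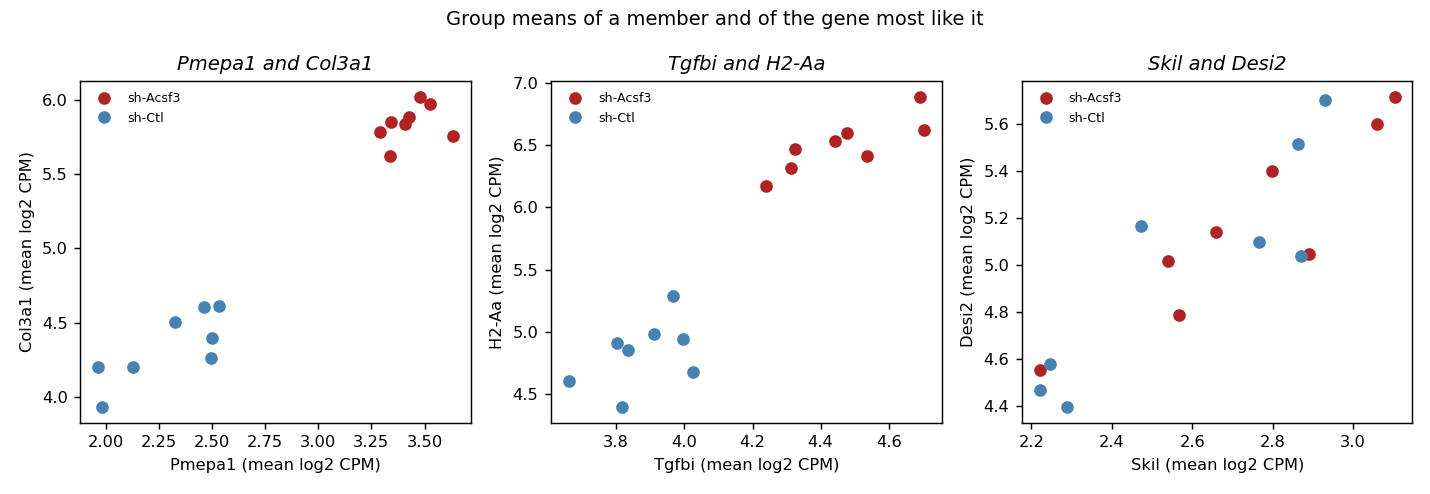
Group means of log2 CPM (mean of 4 libraries; 8 times per treatment, sh-Acsf3 red, sh-Ctl blue) for Pmepa1, Tgfbi and Skil (x axes) and the gene most like each (y axes). For Pmepa1 with Col3a1 (r = 0.976) and Tgfbi with H2-Aa (0.943) the treatments form separate clouds, and for Skil with Desi2 (0.899) they lie along 1 band.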

How the data were processed

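RNA of frozen liver was profiled by bulk RNA barcoding and sequencing of 3′ ends, per the labels. The deposited values are raw UMI counts per gene; STAR and GRCm38/mm10 are named in the submitters' processing notes, and versions, annotation release and strand setting are not given in the sources used here. Each of the 64 columns carries the treatment, time and replicate of 1 labelled sample; replicates of a group differed beyond counting error in all 96 pairs. Counts were analysed with edgeR 4.0.16 in R 4.3.3: low genes were removed with filterByExpr (16 groups, minimum count of 10 and total of 15), TMM scaling and a robust quasi-likelihood fit of 16 group means (48 residual degrees of freedom). Rhythms were fitted as a 24 h cosine curve for each treatment, leaving 58 residual degrees of freedom. Amplitudes and peaks are least-squares estimates from log2 CPM, to which edgeR added a prior count of 2. The rhythm p-values come from the edgeR fit, where amplitudes (log2) were larger. They were 0.405 in sh-Acsf3 and 0.396 in sh-Ctl for Skil, and 0.301 and 0.278 for Tgfbr1. Benjamini-Hochberg adjustment ran over all tested genes, and calls needed an adjusted p under 0.05. Scripts were tested on simulated data.

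The 9 genes, the pathway lists and the marker lists were chosen with earlier results of these data known. Named besides the 9 were the 3 tested genes of each list with the smallest p, and the 2 genes most like each gene of at least 5 CPM; 1 of these is not reported here. The alternatives tried were scaling by RLE or by library size alone, no filter, a mean of at least 5 CPM, DESeq2 1.42.0, limma-voom (limma 3.58.1), a replicate block, an additive model, single-time fits, other rhythm models, and leaving out replicates or single libraries. Leaving out libraries with high Saa1 or pancreas transcripts was chosen after seeing the data. Positions are from GENCODE M21 (GRCm38), promoters from RefSeq; figures were drawn with matplotlib 3.10.9.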

Additional observations from a re-analysis of the deposited data

Results flagged for a closer look

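With 4 libraries per group, the library at the edge of a group stood far from the other 3, by Dixon's criterion, in 10 of 128 combinations of gene and group; chance flags about 1 in 20. In sh-Acsf3, Tgfbr1 at ZT18 had 1 library at 19.5 CPM beside 12.01 to 12.89 CPM, Pmepa1 at ZT3 had 1 at 12.07 CPM beside 9.073 to 9.493 CPM, and Skil at ZT12 had 1 at 3.84 CPM beside 5.749 to 5.978 CPM. In sh-Ctl, the high library was at 3.273 CPM for Tgfb1 at ZT0 (others 1.672 to 1.844), at 30.75 CPM for Tgfbr2 at ZT3 (others 15.51 to 18.02), at 31.86 CPM for Tgfbr2 at ZT6 (others 20.82 to 21.99), at 16.62 CPM for Ltbp4 at ZT3 (others 12.72 to 12.99) and at 5.174 CPM for Skil at ZT6 (others 3.644 to 3.887). The low library of sh-Ctl was at 3.137 CPM for Skil at ZT12 (others 4.288 to 4.416) and at 5.195 CPM for Skil at ZT21 (others 7.438 to 7.895). No Adamtsl2 or Tgfbi group was among the 10.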

How the results depend on the processing

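The averaged calls for Adamtsl2, Pmepa1, Tgfbi and Tgfb1 held in every setting that tested them and with any 1 of the 64 libraries left out; the Ltbp4 call ended without replicate 4, as given above. With a mean of at least 5 CPM required, 3 of the genes were called (Adamtsl2 and Tgfb1 were no longer tested), as were 7 gene and time pairs and 11 genes of the wider pathway; without a filter these counts were 6, 14 and 30. The number of called gene and time pairs was 3 to 6 when a replicate number was left out, 6 without the libraries with pancreas transcripts and 4 with each time fitted alone, where fewer libraries enter a fit. The number of rhythmic genes was 1 to 2 in sh-Acsf3 and 1 to 2 in sh-Ctl when a replicate number was left out; without replicate 1 Tgfbr2 (edgeR adjusted p = 0.0127) took the place of Tgfbr1 in sh-Ctl. Without the libraries high in Saa1 it was 3 in sh-Ctl, with Tgfbr2 added (edgeR adjusted p = 0.0489). It was 1 in sh-Acsf3 without the libraries with pancreas transcripts, 1 in sh-Ctl with 24 h and 12 h cosines, and 1 in each treatment with a 7 degree of freedom time test; the cause was not tested. The averaged difference of Tgfbr1 turned to -0.0028 without a gene filter and to -0.039 without the libraries high in Saa1, and ran from -0.061 to 0.092 without 1 replicate number and from -0.014 to 0.037 without 1 library. Scaling by library size alone moved the median of all genes to 0.046.

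Replicate numbers were not used as pairs in the main fits. Over 32 same-numbered pairs the correlation of deviations ran from -0.157 to 0.261. The 6 values over 0.1 all lay at ZT0, ZT3 or ZT6. In 12 pairs the sh-Acsf3 library correlated best with its own number among the 4 sh-Ctl libraries of its time. Whether same-numbered libraries share a source was not tested. A replicate block left 5 genes and 11 gene and time pairs called, with 21 genes of the wider pathway in place of 20, 2 rhythmic genes in each treatment, and 0 calls for the interaction and for differential rhythm.

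Low counts limit Thbs1, Tgfb1 and Adamtsl2 most, with medians of 2, 8 and 11.5 UMIs per sh-Acsf3 library and 1, 5 and 4 per sh-Ctl library.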

Other observations

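Of 28 other listed transcripts that TGF-beta is known to raise, 9 were below the count filter. Some of these are given as levels with no test, chosen after their values were seen. Timp1, which encodes an inhibitor of matrix proteases, averaged 1.43 ± 1.19 CPM in sh-Acsf3 and 0.192 ± 0.296 CPM in sh-Ctl. Loxl2, which encodes an enzyme that crosslinks collagen, averaged 1.40 ± 0.892 CPM in sh-Acsf3 and 0.521 ± 0.406 CPM in sh-Ctl (SD, n = 32 each). Fstl3 was nearly level, at 0.25 ± 0.33 CPM in sh-Acsf3 and 0.23 ± 0.29 CPM in sh-Ctl. Cdkn2b alone of the 9 averaged lower in sh-Acsf3, at 0.235 ± 0.326 CPM against 0.313 ± 0.426 CPM in sh-Ctl.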
